A study of Mus musculus with 6 samples.

Results

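The distal convoluted tubule is the stretch of the nephron, after the loop of Henle, that fine-tunes the excretion of sodium, calcium and magnesium. Described here are 10 genes of its transport machinery in total kidney RNA of cystic mice. They were selected by gene symbol from a list of parvalbumin (*Pvalb*), the thiazide-sensitive transporter, the channels and buffers for magnesium and calcium, and the WNK pathway, and all 10 were found among 23276 gene symbols. The list was proposed with the authors' comparison of the genotypes already known, in which *Pvalb* stood out, and that comparison is not retold here. The table gave these genes 47 rows, each a transcript, of which 16 had a RefSeq identifier and 31 had been assembled from the reads.

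The RNA came from 6 kidney samples collected at 22 days after birth. The 3 single knockouts (SKO) had the genotype KspCre with Pkd1 F/RC. The 3 double knockouts (DKO) had, beside both of these, the floxed cluster miR17∼92 F/F. All 6 therefore carried the Cre driver, which recombines floxed genes in kidney tubules, together with 1 floxed *Pkd1* allele and 1 germline allele, RC, that weakens *Pkd1* function, and no kidney with intact *Pkd1* was part of the set. The abundance used here is the authors' mean over the libraries of both groups, on the log2 CPM scale and given below as CPM (counts scaled to library size). Since individual kidneys have no column of their own, neither sequencing depth nor variation among the mice is known, and no difference between SKO and DKO could be tested. For the same reason the deleted cluster could not be checked sample by sample. Its host transcript *Mir17hg* (chr14:115042879-115046727 in mm10) had a mean of 4.21 CPM over both groups, which says nothing on either label.

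Cells of this segment take up sodium chloride from the urine through the cotransporter encoded by *Slc12a3*, the target of thiazide diuretics. The kinases WNK1 and WNK4 switch it on through a second pair of kinases, and KLHL3 marks WNK kinases for degradation. A basolateral potassium channel that contains KCNJ10 sets the membrane voltage to which this pathway responds. Magnesium enters through TRPM6 and calcium through TRPV5, and within the cell calcium is carried by calbindin (*Calb1*) and, in the early part of the segment, bound by parvalbumin, before the exchanger encoded by *Slc8a1* passes it to the blood.

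Because the DKO genotype is directed at the miR-17∼92 cluster, the sequences that bear on these genes are the cluster's mature miRNAs and the places in the members' 3′-UTRs that match them. The cluster's 6 guide-strand miRNAs fall into 4 seed families, and miRNAs of one family share the seed, bases 2 to 8, which pairs with the mRNA. The sequences are those of RefSeq (GRCm38.p6), and the seed is in capitals.
miR-17-5p: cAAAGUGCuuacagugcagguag
miR-20a-5p: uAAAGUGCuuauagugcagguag
miR-18a-5p: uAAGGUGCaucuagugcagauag
miR-19a-3p: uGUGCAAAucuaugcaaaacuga
miR-19b-3p: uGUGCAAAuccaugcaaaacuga
miR-92a-3p: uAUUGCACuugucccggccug

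The complements of these seeds (GCACTTT for miR-17-5p and miR-20a-5p, GCACCTT for miR-18a-5p, TTTGCAC for miR-19a-3p and miR-19b-3p, GTGCAAT for miR-92a-3p) were sought on the RNA strand of 1 3′-UTR per gene as annotated by GENCODE on GRCm38 (mm10). Of the 10 members, 6 held at least 1 match, with 9 matches in all. By family, 3 members held a match to the miR-17 seed, 3 to that of miR-18a, 2 to that of miR-19 and 1 to that of miR-92a. Over the 19060 genes with a 3′-UTR, 11.3% held a match to the miR-17 seed, 7.58% to that of miR-18a, 10.3% to that of miR-19 and 6.14% to that of miR-92a. Each is printed below with its flanks in lower case and the match in capitals, and each lies in the last exon of its gene.
*Calb1*, miR-17-5p/miR-20a-5p, chr4:15906081-15906087, forward strand: ggatttaaGCACTTTttttcaa
*Klhl3*, miR-17-5p/miR-20a-5p, chr13:58003900-58003906, reverse strand: ggccgttgGCACTTTgtgagga
*Kcnj10*, miR-17-5p/miR-20a-5p, chr1:172372403-172372409, forward strand: tctaagttGCACTTTaaaatca
*Pvalb*, miR-18a-5p, chr15:78191295-78191301, reverse strand: caatctctGCACCTTtcccaca
*Kcnj10*, miR-18a-5p, chr1:172372463-172372469, forward strand: tcagaacgGCACCTTtctccaa
*Slc8a1*, miR-18a-5p, chr17:81373759-81373765, reverse strand: tttgtataGCACCTTgttataa
*Slc8a1*, miR-19a-3p/miR-19b-3p, chr17:81386088-81386094, reverse strand: agaaagatTTTGCACtggtttt
*Wnk1*, miR-19a-3p/miR-19b-3p, chr6:119924079-119924085, reverse strand: cctgtacaTTTGCACtaactcc
*Slc8a1*, miR-92a-3p, chr17:81385589-81385595, reverse strand: gtatccttGTGCAATctatatc

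The miR-17 seed match occurred in *Calb1*, *Klhl3* and *Kcnj10*, which, of the 3′-UTRs searched, had the longest after *Slc8a1*. Only that of *Kcnj10* was followed by an A, the base that extends a seed match to its strongest form. The frequency of such a match grew with length. It was present in 28.4% of 3′-UTRs close in length to the 3301 nt of *Calb1* (no shorter than 0.8 of it and no longer by the same proportion), in 38.3% of those close to the 4948 nt of *Klhl3* and in 32.0% of those close to the 4025 nt of *Kcnj10*. The miR-18a match of *Kcnj10* was shared by 20.4% of the latter.

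*Pvalb* had no miR-17 match in a 3′-UTR of 549 nt. Its single match was to the miR-18a seed, at positions 365 to 371 counted from the first base after the stop codon, and 3.35% of 3′-UTRs of similar length held that motif. The match also lay in the other annotated *Pvalb* transcript that has a 3′-UTR. *Slc12a3*, *Trpm6*, *Trpv5* and *Wnk4* held no match to any of the 4 seeds in 3′-UTRs of 253, 374, 957 and 374 nt. A longer annotated 3′-UTR of *Trpm6*, of 3565 nt, held 1 match to the miR-92a seed.

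For *Slc8a1* and *Wnk1* the answer turned on the transcript. The longest *Slc8a1* 3′-UTR, of 15586 nt, held 3 matches, whereas those of 167 and 416 nt held 0. Only 14 genes, *Slc8a1* included, had a 3′-UTR of similar length, and of these 50.0% held a miR-18a, 85.7% a miR-19 and 64.3% a miR-92a match. The *Wnk1* match lay in the 3′-UTRs of 2399 and 2401 nt and in none of the shorter ones, and 19.1% of 3′-UTRs of similar length held one. Which 3′-UTR these kidneys used cannot be read from the table.

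**Figure D1:**
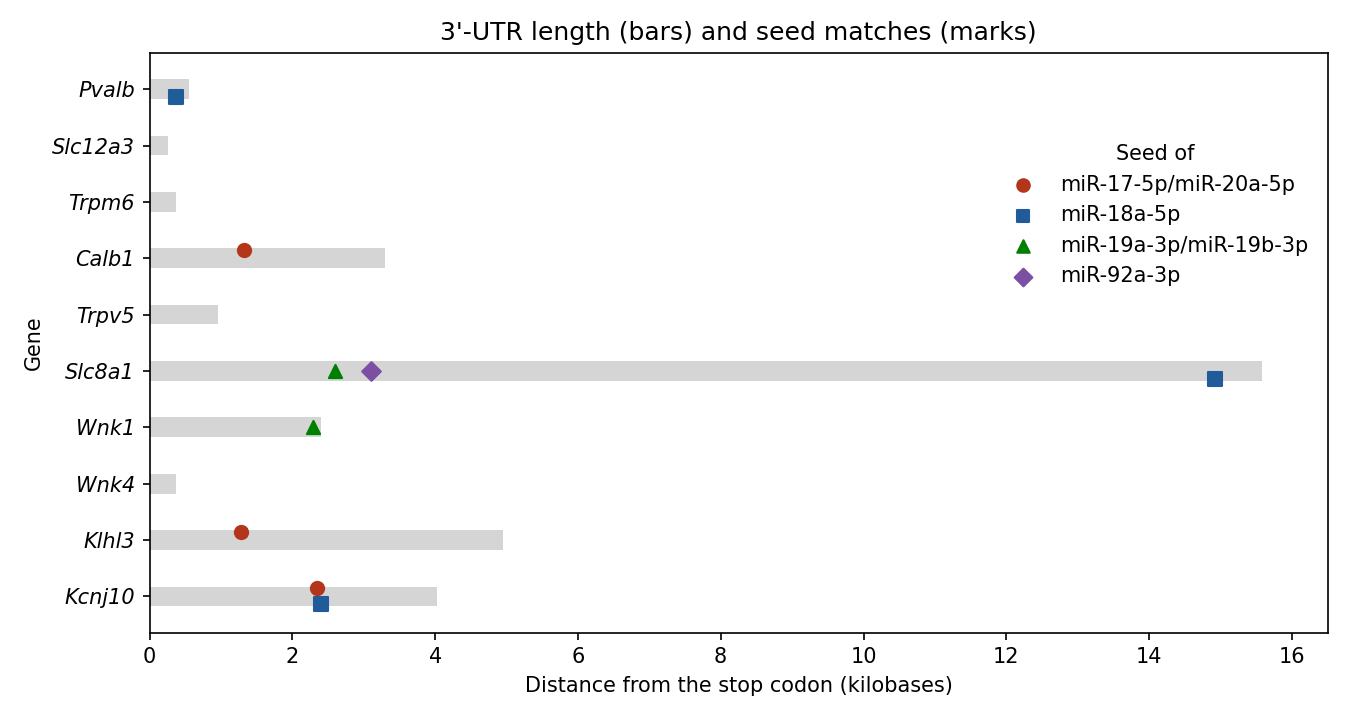
Length of the 3′-UTR searched for each gene (grey bars, kilobases from the stop codon) and the seed matches in it (marks, coloured by miRNA family). The 9 matches fall in 6 of the 10 genes, 3 of them in the 15586 nt 3′-UTR of *Slc8a1*. The share of all genes with a match to any of these seeds was not computed.

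Every member was measurable in total kidney RNA. All 10 had a mean of at least 1 CPM, with 3.14 CPM for *Pvalb* and 274 CPM for *Wnk1* as the ends of the range, taking the row with the highest mean of each gene. Of the 20470 genes with a RefSeq mRNA row, 12648 also reached 1 CPM in this way, so passing this threshold is not particular to the members. Rows of one gene share exons and hence reads, so they are not independent measurements and a gene is given by its highest row rather than by their sum. These CPM values are not divided by transcript length and do not rank one gene against another.

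*Slc12a3*, the cotransporter gene, had 9 rows. They ranged from 88.7 to 169 CPM, and the highest was an assembled transcript. The RefSeq rows NM_019415 and NM_001205311 both had 142 CPM. The remaining rows, all assembled, lay on either side of these.

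*Pvalb* had a single row, NM_013645, with a mean of 3.14 CPM (1.65 on the log2 CPM scale). Parvalbumin is also made by fast skeletal muscle, and the 5 muscle genes looked at beside it were close to the lowest value of the table, 0.0263 CPM. *Acta1*, skeletal actin, had 0.0890 CPM, *Tnnt3*, fast troponin T, 0.0764 CPM and *Atp2a1*, the calcium pump of fast fibres, 0.0773 CPM. *Ckm*, the muscle creatine kinase, had 0.0573 CPM, and *Myh4*, a fast myosin heavy chain, was listed at the lowest value itself.

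Among the magnesium and calcium genes, the levels of *Calb1* depended most on the row. Its RefSeq row NM_009788 had 160 CPM, and its assembled rows had 170, 56.2 and 34.8 CPM, so that the highest was 4.88 times the lowest, the widest spread over rows among the members. *Slc8a1*, the sodium-calcium exchanger, had 6 rows that differed little, from 84.2 to 86.5 CPM. *Trpv5* had 27.9 CPM in its RefSeq row NM_001007572. Its assembled rows had 42.0, 42.0 and 11.5 CPM, which puts the highest 1.51 times above the RefSeq row. The magnesium channel gene *Trpm6* had 10.4 CPM in NM_153417, and its 5 rows ranged from 9.54 to 10.4 CPM.

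In the WNK pathway, the 9 rows of *Wnk1*, which include 5 RefSeq transcripts, lay between 256 and 274 CPM. A short kidney-specific form of WNK1 that lacks the kinase domain is known, and because the rows overlap and the table does not give the exons of assembled rows, its share of the total cannot be stated. *Wnk4* had 55.1 CPM in NM_175638 and 55.2 CPM in its highest row. *Klhl3* had rows of unequal level. Its RefSeq row NM_001195075 had 5.30 CPM and its highest assembled row 11.2 CPM, 2.12 times as much. *Kcnj10*, with the single row NM_001039484, had 49.4 CPM.

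**Figure D2:**
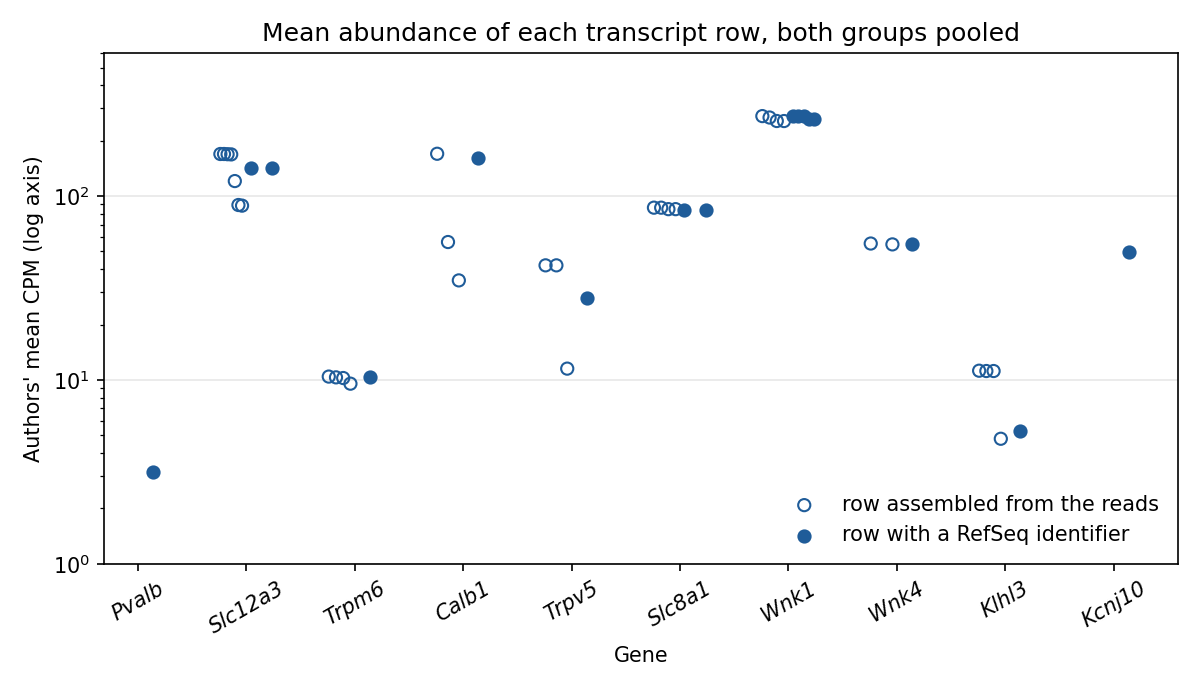
Authors' mean CPM (log axis, both groups pooled) of each of the 47 rows, with filled points for RefSeq rows and open points for rows assembled from the reads. Rows of *Wnk1*, *Slc8a1*, *Trpm6* and *Wnk4* nearly coincide, whereas those of *Calb1*, *Trpv5*, *Klhl3* and *Slc12a3* spread out.

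Longer transcripts collect more reads, so levels were compared between genes per length. The mean CPM of a gene's highest RefSeq row was divided by the kilobases of a GENCODE transcript (CPM per kilobase). This was the longest one matched to any RefSeq row of the gene, not always to the row used. On that scale *Slc12a3* had 43.0, *Calb1* 38.0, *Wnk1* 24.2 and *Wnk4* 13.4 CPM per kilobase. Lower values were those of *Kcnj10* at 9.14, *Trpv5* at 8.60, *Slc8a1* at 4.56 and *Pvalb* at 3.30 CPM per kilobase. *Trpm6*, at 1.60, and *Klhl3*, at 0.741 CPM per kilobase, had the lowest. No spread between kidneys is given, so whether neighbours in this list differ, such as *Slc12a3* and *Calb1* with a ratio of 1.13, could not be tested.

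The place of *Slc8a1* depended on its length. With its longest transcript of 18464 nt it stood at 4.56 CPM per kilobase, and with the shortest one that matched a RefSeq identifier, of 3180 nt, at 26.5 CPM per kilobase. The row used, NM_011406, was itself matched to the 3180 nt transcript. The 18464 nt belong to NM_001112798, which also had 84.2 CPM. For *Wnk1*, the row used, NM_198703, was matched to 10575 nt, whereas the length used was 11330 nt. The length for *Klhl3*, 7149 nt, was matched by symbol and not by RefSeq identifier. With the highest row of any kind in place of the RefSeq row, *Klhl3* had 1.57 and *Trpv5* 12.9 CPM per kilobase.

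Among the 20295 genes with a length, whose median was 1.36 CPM per kilobase, *Slc12a3* was above 97.2% and *Calb1* above 96.8%. *Wnk1*, *Wnk4*, *Kcnj10* and *Trpv5* were above 94.8%, 89.9%, 85.1% and 84.2% of genes. *Slc8a1* exceeded 72.1%, *Pvalb* 65.2% and *Trpm6* 52.3% of genes, and *Klhl3* exceeded 43.4%. From *Klhl3* to *Slc12a3* the level differed 58.0-fold. With the highest row of any kind in place of the RefSeq row, this range was 32.7-fold and *Klhl3*, at 1.57, lay above the median of 1.47 CPM per kilobase, so that its place below the median gene rests on the RefSeq row. With the shortest matched transcript for every gene, *Slc8a1* exceeded 94.5% of genes. All these ranks include many genes below 1 CPM. With the main row and length, and against only genes whose RefSeq row had at least 1 CPM, the lower members ranked lower. *Slc8a1* then exceeded 54.8%, *Pvalb* 43.6%, *Trpm6* 22.9% and *Klhl3* 8.88% of genes. The other members exceeded between 74.4% (*Trpv5*) and 95.5% (*Slc12a3*).

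**Figure D3:**
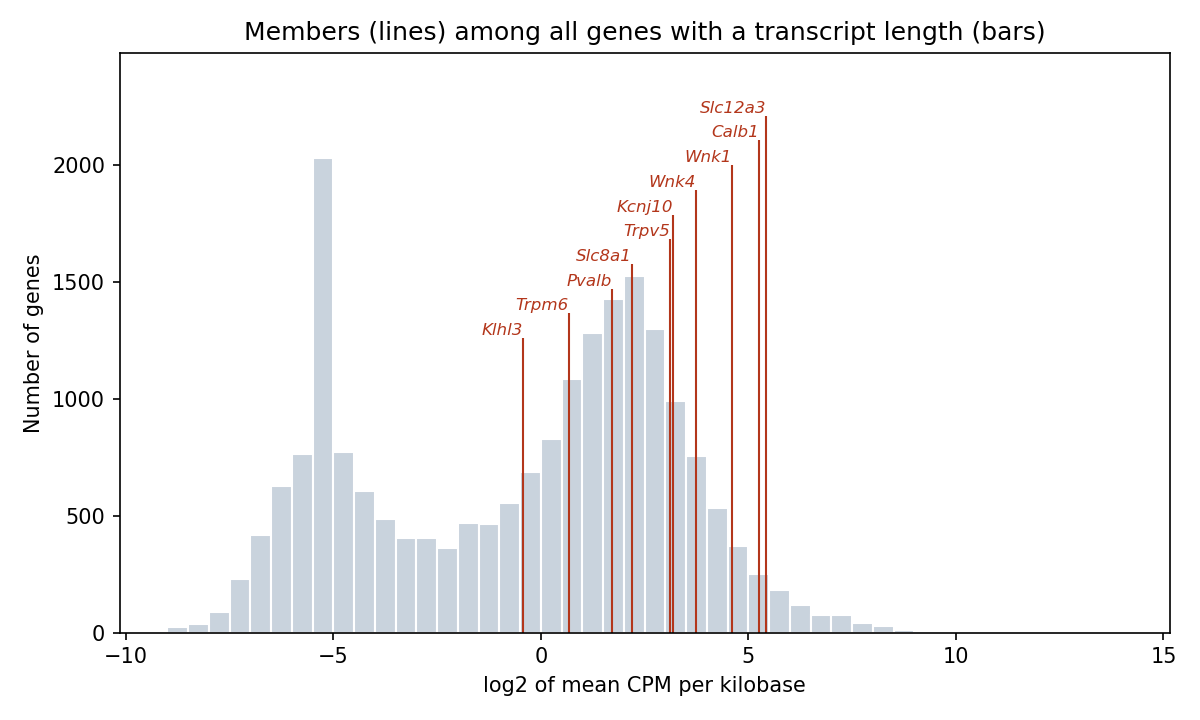
Number of genes (bars) by log2 of the mean CPM per kilobase, over 20295 genes, with the 10 members drawn as labelled lines. The members run from *Klhl3*, at 0.741, to *Slc12a3*, at 43.0 CPM per kilobase, and 9 of them lie above the median gene when the RefSeq row is used. Among only the genes with at least 1 CPM, *Pvalb*, *Trpm6* and *Klhl3* lie below the median.

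The partners of these genes were 25 listed genes of distal transport and the WNK pathway. All had a mean of at least 1 CPM, as did 12648 of the 20470 genes with a RefSeq mRNA row. Per kilobase, 15 of the 25 lay within the range of the members, 8 above and 2 below it. The 2 below were *Wnk2* and *Wnk3*, the other kinases of the WNK family, at 0.286 and 0.283 CPM per kilobase. The kinases that WNK1 and WNK4 act on, *Stk39* (SPAK) and *Oxsr1* (OSR1), had 7.88 and 5.51 CPM per kilobase. *Cul3*, the ubiquitin ligase scaffold that KLHL3 works with in the tubule but that many cells use, was 18.0 times as abundant as *Klhl3*, and 9.25 times with the highest row of any kind for both.

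*Kcnj16*, whose product forms a channel with that of *Kcnj10*, had 81.6 CPM per kilobase, 8.93 times the level of *Kcnj10*. *Bsnd*, which encodes a chloride channel subunit, had 12.0 CPM per kilobase. The sodium pump subunit genes *Atp1b1* and *Fxyd2* were at 498 and 764 CPM per kilobase. All of these are levels in total kidney RNA, so neither they nor the ratio of *Kcnj16* to *Kcnj10* need hold within this segment.

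For magnesium, *Trpm7*, the widely expressed relative of *Trpm6*, was 7.64 times as abundant as *Trpm6*. *Egf*, whose product stimulates TRPM6 and which is made in the distal nephron, had 102 CPM per kilobase. *Cnnm2* and *Slc41a1*, implicated in magnesium transport, had 2.04 and 4.15 CPM per kilobase. The RefSeq row of *Cnnm2* had 10.1 CPM and its highest row 14.4 CPM. *Pcbd1*, which encodes a transcriptional cofactor, had 60.6 CPM per kilobase.

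For calcium, *Trpv5* was 3.84 times as abundant as *Trpv6*, the gene of the related channel, and 5.78 times with the highest row of any kind for both. *S100g*, which encodes the small calbindin, had 338 CPM per kilobase, 8.91 times the level of *Calb1*, on a transcript of only 480 nt. The calcium pump genes *Atp2b1* and *Atp2b4* had 9.53 and 2.28 CPM per kilobase. *Vdr*, the vitamin D receptor, had 14.9 and *Casr*, the calcium-sensing receptor of the thick ascending limb, 5.76 CPM per kilobase. The value of *Casr* depends on the row, with 26.1 CPM in the RefSeq row used and 46.1 CPM in its highest row. *Klk1*, tissue kallikrein, had 346 CPM per kilobase and belongs to a family of close copies, so that its reads may be shared with its relatives.

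Among the genes for hormonal control, *Sgk1*, an aldosterone-induced kinase, had 39.3 and *Nedd4l*, a ubiquitin ligase that lowers sodium transport, 20.8 CPM per kilobase. *Hsd11b2*, which protects the mineralocorticoid receptor from glucocorticoids, had 58.4 CPM per kilobase, and the receptor gene *Nr3c2* 1.56. The RefSeq row of *Nr3c2* had 8.84 CPM and its highest row 12.0 CPM.

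The defining markers of the segment, *Pvalb*, *Slc12a3*, *Trpm6*, *Calb1* and *Trpv5*, are themselves members, so their presence is no separate check of the label. They had a median of 8.60 CPM per kilobase and a range of 1.60 to 43.0. *Calb1* and *Trpv5* also mark the connecting tubule that follows. Markers of every other kidney cell type looked at were present as well, and fewer cells of a type and less RNA per cell cannot be told apart in such RNA. Markers of the thick ascending limb, just before this segment, had a median of 63.4 CPM per kilobase and a range of 6.06 to 374. Of these, *Cldn16*, at 6.06, and *Ptger3*, at 6.38, lay below the distal convoluted tubule median. *Slc12a1*, the loop's own sodium chloride cotransporter gene, had 3.08 times the level of *Slc12a3*. With the highest row of any kind for both, the ratio was 2.59. Proximal tubule markers had a median of 36.7, principal cell markers 25.0 and intercalated cell markers 12.5 CPM per kilobase. Outside the tubule, the medians were 16.3 for fibroblasts, 11.1 for endothelium, 7.38 for podocytes and 4.06 for macrophages. The 5 muscle genes were the only list without a gene at 1 CPM, with a median of 0.0222 CPM per kilobase. Markers differ in how strongly each cell makes them, so these medians are not shares of cells.

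**Figure D4:**
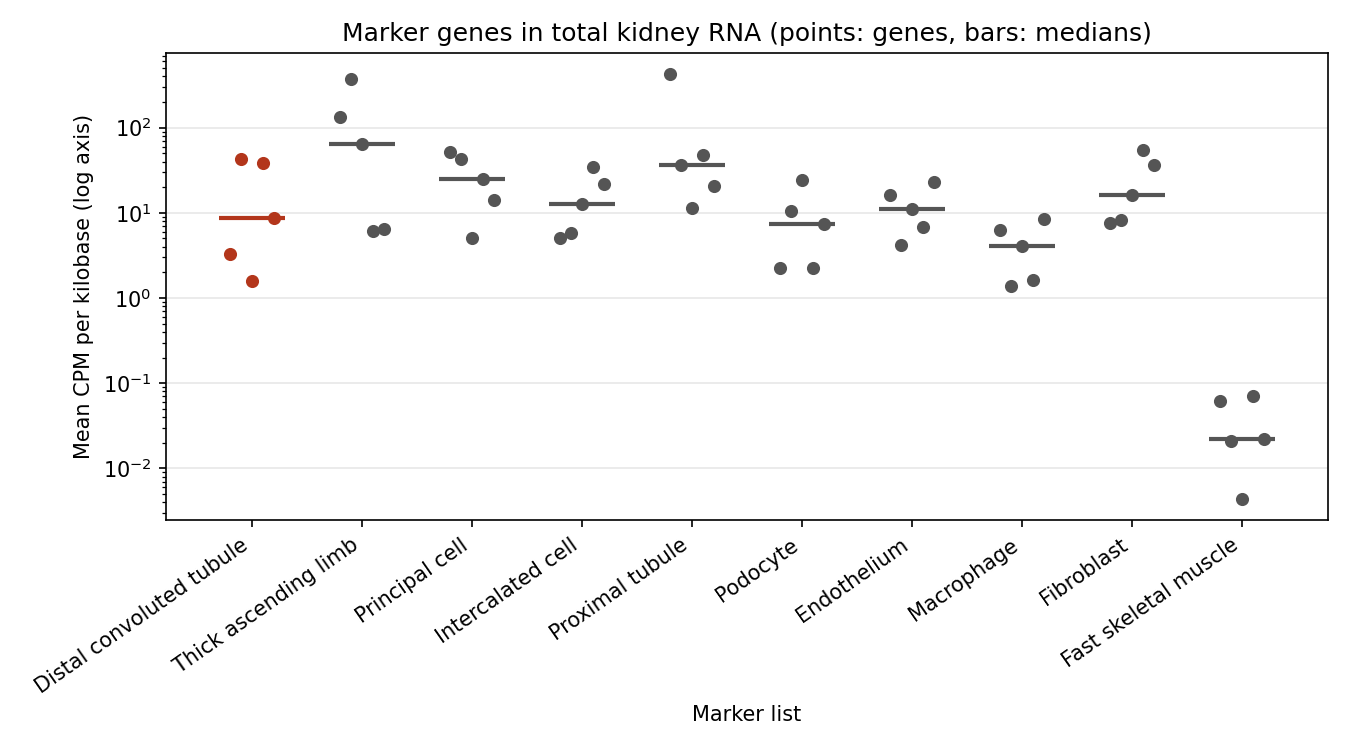
Mean CPM per kilobase (log axis, both groups pooled) of 5 marker genes for each of 10 cell types, with points for genes and bars for medians. The distal convoluted tubule list (red) has a median of 8.60, and the muscle list lies below all others, with a median of 0.0222 CPM per kilobase.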

How the data were processed

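Total RNA of 6 kidneys was read as strand-specific single-end libraries. Quality trimming by the authors was followed by mapping to mm10 with TopHat (2.0.12 per the labels) and the UCSC iGenomes annotation, and by edgeR (3.2.4 per the labels). Cufflinks and featureCounts (Subread 1.4.6) are named in the submitters' processing notes without a role. The deposited table has 54721 rows, 9317 of them without a gene symbol. The deposited log2 values are the authors' mean log2 CPM over the libraries. The table's other columns hold the authors' own comparison of the groups (a log2 fold change, a test statistic, a p-value and its adjusted value) and were not used. No column belongs to a single sample, so the planned edgeR quasi-likelihood test of DKO against SKO, and with it DESeq2 and leaving out each kidney, could not be run. Scaling factors and the prior count are not given in the sources used here. The mean CPM summed to 1007270 over all rows, so CPM is relative to counts summed over rows, and a read on exons shared by several rows may count once for each.

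Values were turned into CPM by taking the power of 2. A gene was represented by its highest row, and for comparison between genes by its highest RefSeq row per kilobase of the longest GENCODE M21 transcript with one of its RefSeq identifiers. Of 20470 genes with a RefSeq mRNA row, 20167 were given a length by identifier and 128 by symbol. *Adgre1* was matched through its older symbol, *Emr1*. The 3′-UTR is the sequence after the annotated stop codon. The site search was tested on simulated data. All members and 25 genes of the pathway list are named, whatever their values, and the list as first written held other genes that are not reported here. Marker lists are given by their medians, and some also by a range or by single genes. The members and lists were chosen with earlier results of these data known. Python 3.11.15, numpy 2.4.6, pandas 2.3.3 and matplotlib 3.10.9 were used.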

Additional observations from a re-analysis of the deposited data

How the results depend on the processing

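No paired analysis was possible because the table gives no value for a single kidney, and for the same reason the planned test between groups and its alternatives (DESeq2, another filter on low counts, leaving out each kidney) were not run. The spread between kidneys is unknown, so any change of a value counts here as a move. The median of the 10 members' mean levels was 52.3 CPM with the highest row of each gene, 52.2 CPM with the highest RefSeq row, 144 CPM with all rows of a gene added up, which counts shared reads repeatedly, and 8.87 CPM per kilobase. The number of members at 1 CPM or more was 10 with the highest row, with the sum of rows and at a threshold of 0.5 CPM, and 9 at 5 CPM, where *Pvalb* was lost. At 1 CPM by the highest row, 12648 of 20470 genes passed as well, and the share of all genes was not computed at the other settings. By level per kilobase the median member exceeded 84.6% of all genes and 75.1% of the genes with at least 1 CPM. The choices of transcript length and of row for the level per kilobase, and the search of other annotated 3′-UTRs, were made after seeing the data. The shortest matched length moved *Slc8a1* from 4.56 to 26.5 and *Wnk1* from 24.2 to 33.6 CPM per kilobase. The highest row of any kind moved *Klhl3* from 0.741 to 1.57, *Trpv5* from 8.60 to 12.9 and *Slc12a3* from 43.0 to 51.3 CPM per kilobase, and *Calb1*, *Trpm6*, *Wnk4* and *Slc8a1* by less, to 40.2, 1.60, 13.4 and 4.68 CPM per kilobase.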
